A study of Mus musculus with 2 samples.

Results

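The formyl peptide receptor genes Fpr1 and Fpr2 and the annexin A1 gene Anxa1 were followed through the splenic CD11c+ cells of wild-type mice. They are 3 of the 27032 genes measured. They were chosen by their measured levels, which were already known to differ between the cell classes of these samples, so their levels by class are given as a description and without a test.

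Formyl peptide receptors are G protein-coupled receptors of myeloid cells. They recognize peptides that begin with formylmethionine, which bacteria and mitochondria release, and they couple through inhibitory G proteins to chemotaxis and to the phagocyte NADPH oxidase. Annexin A1 is a calcium-dependent phospholipid-binding protein that glucocorticoids induce. When it leaves the cell it acts as a ligand of these receptors, of FPR2 above all, and is known for ending neutrophil recruitment and for guiding dendritic cells to dying cells.

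The samples were 2 single-cell transcriptomes of 1 condition, wild-type spleen, here called replicates 1 and 2, and neither carried a treatment or a transgene per the labels. Cells were enriched with magnetic beads for CD11c, the integrin Itgax, labeled with sample tags and captured with the BD Rhapsody system. This microwell method counts each mRNA molecule by its unique molecular identifier (UMI). The study's methods describe adult mice of both sexes on a C57BL/6J background, and the number of mice behind each sample was not given there or in the labels. Macrophages and lymphocytes are therefore only those that the CD11c beads retained, and p-values measure the spread between these samples, which may be technical.

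Both receptor genes lie on chromosome 17 of GRCm38, back to back. Fpr1 (ENSMUSG00000045551.7) runs from 17876471 to 17883940 on the minus strand and Fpr2 (ENSMUSG00000052270.7) from 17887824 to 17893952 on the plus strand, so that their start sites are 3883 bases apart and point away from each other. Anxa1 (ENSMUSG00000024659.15) lies on chromosome 19 from 20373428 to 20390944 on the minus strand. The annotated span of Fpr3 overlaps that of Fpr2 on the same strand over 6101 bases, and since intronic reads were counted, how reads in the overlap were shared between them is uncertain. Because Fpr1 and Fpr2 share 1 intergenic interval and their levels move together below, the 240 bases upstream of each annotated start are shown (RefSeq, GRCm38.p6, from 250 to 11 bases before the start). The Fpr1 stretch is chr17:17883950-17884189 on the minus strand and the Fpr2 stretch chr17:17887574-17887813 on the plus strand. Capitals mark matches of 3 motifs searched on both strands, which are TATAAA as in a TATA box, then the CAAT box letters CCAAT, and finally the letters GAGGAA.
Fpr1: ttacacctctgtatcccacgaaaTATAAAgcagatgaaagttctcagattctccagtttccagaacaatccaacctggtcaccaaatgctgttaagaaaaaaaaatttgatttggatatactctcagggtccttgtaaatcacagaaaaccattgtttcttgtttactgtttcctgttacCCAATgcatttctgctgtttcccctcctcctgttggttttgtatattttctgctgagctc
Fpr2: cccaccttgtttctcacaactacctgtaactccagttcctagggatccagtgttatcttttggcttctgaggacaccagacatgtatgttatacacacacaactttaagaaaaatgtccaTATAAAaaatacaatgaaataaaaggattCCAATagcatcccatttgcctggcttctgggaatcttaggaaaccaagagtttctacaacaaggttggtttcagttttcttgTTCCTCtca
TATAAA, the letters of a TATA box, occurred once in each stretch, 227 bases before the Fpr1 start and 130 bases before the Fpr2 start, and in 12.1% of 32851 promoter windows of this length. CCAAT occurred once in each, 70 and 101 bases before the start, and in 33.0% of windows. GAGGAA, the core letters bound by the myeloid factor PU.1, occurred once, on the opposite strand 19 bases before the Fpr2 start, and in 22.3% of windows. TGANTCA, the letters of an AP-1 site, occurred in neither stretch and in 6.58% of windows. A match in these windows is a description of letters only.

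The deposited tables held 3308 cells with 46953398 UMIs in replicate 1 and 3085 cells with 43137746 UMIs in replicate 2, and shared 0 cell barcodes. After a filter modelled on that of the study 2928 and 2725 cells remained, with medians of 12220 and 11435 UMIs per cell. Cells were placed in 9 classes by UMI gates, taking the first that matched. Macrophages needed at least 20 UMIs of Vcam1 and 5 of C1qb, mature DCs 2 of Ccr7 and 1 of Fscn1, cDC1s 2 of Clec9a and 1 of Xcr1, and pDCs 3 of Siglech and 1 of Ccr9. B cells needed 3 UMIs of Cd79a, T cells 2 of Cd3e, NK cells 1 of Ncr1, DCIR2+ cDC2s 2 of Clec4a4, and CLEC10A+ cDC2s 2 of Clec10a and Cd209a together. The gates found 293 and 130 macrophages, 138 and 173 mature DCs, 684 and 570 cDC1s, 556 and 456 DCIR2+ cDC2s, 484 and 408 CLEC10A+ cDC2s, 13 and 19 pDCs, 65 and 172 B cells, 41 and 159 T cells, and 38 and 36 NK cells, and left 616 and 602 cells in no gate. Other markers of each class, none of them a gate gene, stood at more than 2 times their median over classes for 9 of 9 macrophage, 8 of 8 mature DC, 8 of 8 cDC1, 7 of 8 pDC, 7 of 7 B, T and NK cell, but only 3 of 6 DCIR2+ and 4 of 7 CLEC10A+ markers. Itgax was lowest in B cells, with 73.8 and 47.9 UMIs per 1000000 UMIs of the class (CPM), against 115 and 126 CPM in macrophages and 442 to 895 CPM in the DC classes. No doublet caller was run, and 324 and 286 cells met the gates of more than 1 class.

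Fpr1, which encodes the high-affinity formyl peptide receptor, was found almost wholly in macrophages. Its level there was 279 CPM in replicate 1 (95% Poisson interval 266 to 294, from 1545 UMIs) and 250 CPM in replicate 2 (230 to 270, from 612 UMIs), with a mean of 264 ± 21.1 CPM (SD, n = 2). A UMI of Fpr1 was present in 253 of 293 macrophages, 86.3% (exact 95% interval 81.9 to 90.1), and in 109 of 130, 83.8% (76.4 to 89.7). Both libraries thus showed the gene in most cells of the class. Thinning each cell to 4000 UMIs left 59.3% and 54.7%. The median macrophage held 5 and 3 UMIs and the richest 26 and 21. Macrophages carried 96.8% and 93.3% of all Fpr1 UMIs of the kept cells.

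Since neutrophils and monocytes are the classical sources of Fpr1 and Fpr2, their markers were measured in the same macrophages. The 8 neutrophil markers summed to 74.1 and 68.9 CPM, of which Csf3r alone gave 70.7 and 66.1 CPM, with Retnlg and Ly6g at 0 in both replicates. The 8 monocyte markers summed to 32.2 and 48.1 CPM, less than in any other class, with Chil3 and Hp at 0. The 9 macrophage markers summed to 26987 and 24727 CPM. No macrophage held as many as 4 of the neutrophil markers.

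Outside macrophages Fpr1 was close to nothing in every gated class. B cells, T cells, NK cells and pDCs held 0 UMIs in both replicates. For B cells, which serve as the background class, 0 of 65 and 0 of 172 cells, with a floor of 3 cells, allow a share of cells with a UMI of up to 4.62% and 1.74%, at median depths of 7677 and 6981.5 UMIs against 19313 and 18136.5 in macrophages. Mature DCs held 4 and 0 UMIs, cDC1s 8 and 3, DCIR2+ cDC2s 4 and 3, and CLEC10A+ cDC2s 6 and 1. In these classes Fpr1 reached at most 0.903% of its macrophage level, and the 9 macrophage markers reached medians of 0.189% to 1.19% of theirs in the same 4 classes. Whether these UMIs came from free RNA was not tested. Cells in no gate held 29 and 37 Fpr1 UMIs, 4.84 and 6.11 CPM.

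Fpr2, the receptor that also binds annexin A1, was likewise highest in macrophages among the gated classes, with less even levels between replicates. In macrophages it stood at 86.2 CPM (78.7 to 94.3, from 477 UMIs) and 124 CPM (110 to 139, from 304 UMIs), a mean of 105 ± 26.7 (SD, n = 2). The counting intervals of the replicates did not overlap, so the libraries differed by more than counting error. A UMI of Fpr2 was present in 52.6% of macrophages in replicate 1 (46.7 to 58.4) and 60.0% in replicate 2 (51.0 to 68.5), and in 22.9% and 29.7% after thinning. The median macrophage held 1 UMI in both replicates, while the richest cells held 29 and 43. Macrophages carried 85.3% and 71.0% of all Fpr2 UMIs.

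The CLEC10A+ cDC2s held 10 and 16 UMIs of Fpr2, 1.83 and 3.42 CPM, and the DCIR2+ cDC2s 14 and 5, 1.94 and 0.833 CPM. This was 2.12% and 2.76% of the macrophage level in the CLEC10A+ class, where macrophage markers had medians of 0.311% and 1.19%. B cells, NK cells and pDCs again held 0 UMIs, T cells 1 and 1, mature DCs 2 and 0, and cDC1s 9 and 10. The largest level outside the macrophage gate was in the cells of no gate, with 7.67 and 15.2 CPM. Fpr3, a related receptor, stood at 1.27 and 0.816 CPM in macrophages and reached no more than 1.66 and 2.17 CPM in DCIR2+ cDC2s, its highest gated class. The other 4 family members listed, Fpr-rs3, Fpr-rs4, Fpr-rs6 and Fpr-rs7, were not analysed here.

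**Figure D1:**
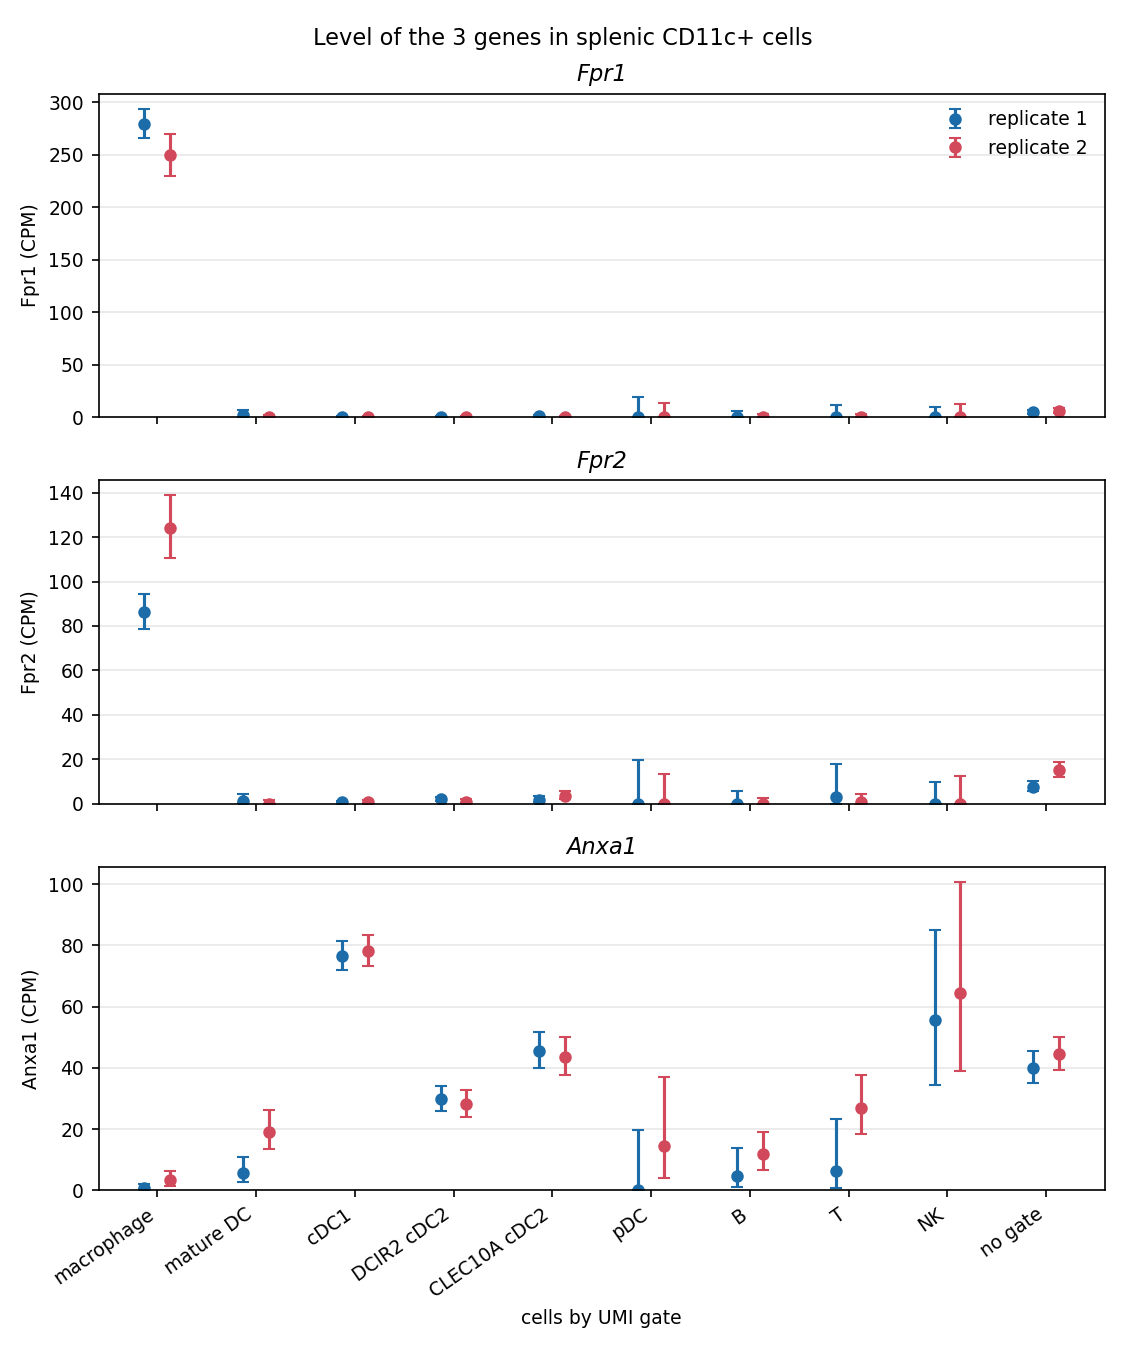
Levels of Fpr1, Fpr2 and Anxa1 in CPM (vertical axes, each from 0) for the 9 gated classes and the cells of no gate, with 1 point per replicate and bars for the exact 95% Poisson interval of the count. Fpr1 (279 and 250 CPM) and Fpr2 (86.2 and 124 CPM) stand out in macrophages, where Anxa1 is low (0.904 and 3.26 CPM), and Anxa1 is highest in cDC1s (76.7 and 78.1 CPM).

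Both receptors were often found in the same macrophage. In replicate 1, 138 macrophages held UMIs of both genes, 115 of Fpr1 alone, 16 of Fpr2 alone and 24 of neither. In replicate 2 these were 69, 40, 9 and 12 cells. Fpr2 was thus detected in 54.5% and 63.3% of macrophages with Fpr1 and in 40.0% and 42.9% of those without it. Cells with Fpr1 were also deeper, with medians of 20139 and 18949 UMIs against 10378.5 and 15795, and the part of depth in this co-detection was not tested. Anxa1, the ligand, was nearly missing from these cells, and 4 and 3 macrophages held both Fpr1 and Anxa1.

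**Figure D2:**
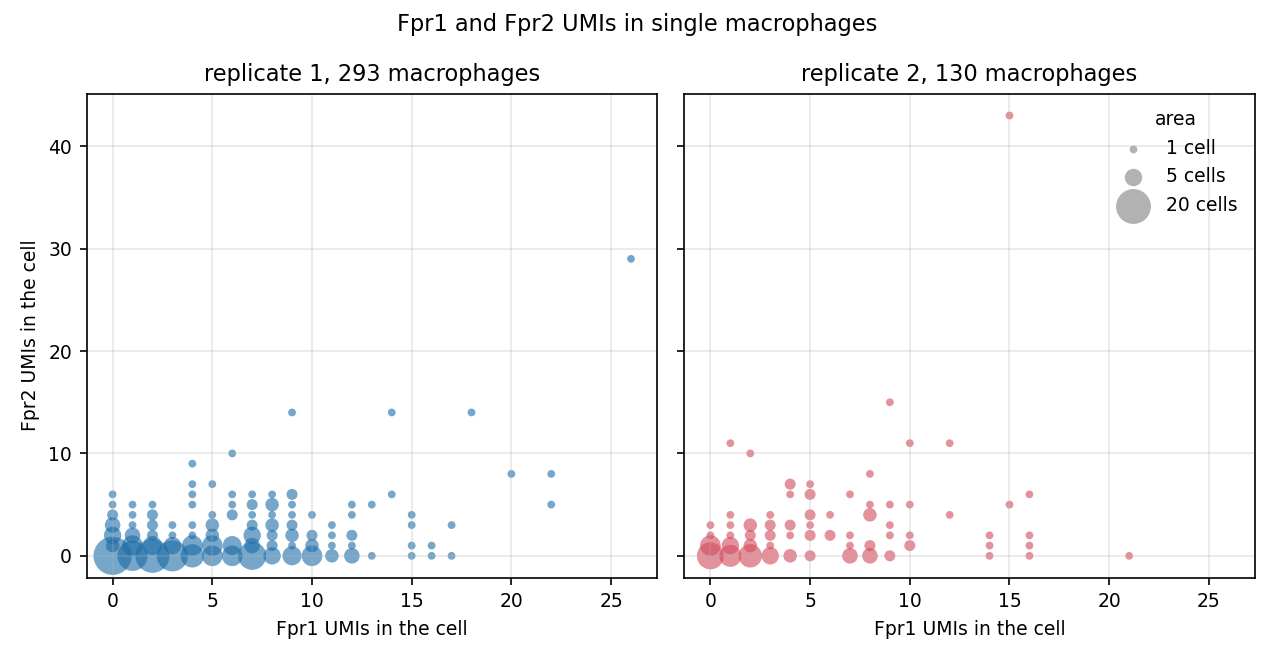
UMIs of Fpr1 (horizontal axis) and Fpr2 (vertical axis) in each macrophage, with 1 panel per replicate and the area of a point giving the number of cells at that pair of counts. Most cells lie at or below 11 Fpr1 UMIs and 6 Fpr2 UMIs, and the richest single cells for Fpr2 hold 29 UMIs in replicate 1 and 43 in replicate 2.

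Macrophages in which neither receptor was detected were few, and some of them carried other transcripts. They numbered 24 and 12, against 269 and 118 with an Fpr1 or Fpr2 UMI, and no other class had 15 cells with a receptor UMI in both replicates. Over the 8969 genes tested between these 2 groups of macrophages, 1 was higher (0.0111% of those tested) and 10 were lower (0.111%) in the cells with a receptor by edgeR's quasi-likelihood test, and 994 had an unadjusted p under 0.05. With the sample as a block, 49 were higher and 154 lower, and DESeq2 gave 13 and 123.

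The single gene that was higher was Cd300e, an activating receptor of myeloid cells, with 172 and 194 CPM in the cells with a receptor and 39.9 and 27.2 CPM in those without (log2 fold change 2.39, SE 0.29, adjusted p = 0.0472). Among those that were lower were Lyz2, Cx3cr1, Cd63, Tspan7, Tspan10, Myo5a and Ccl8. Cx3cr1, the fractalkine receptor, stood at 10.9 and 4.93 CPM with a receptor and 279 and 708 CPM without (log2 fold change -5.86, SE 0.55, adjusted p = 0.0120). Lyz2, lysozyme, stood at 83.6 and 112 CPM against 5913 and 21994 CPM (-7.20, SE 0.68, adjusted p = 0.0120).

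A handful of cells carried these values. In the cells without a receptor, Cx3cr1 was found in 3 of 24 and 6 of 12, and the top 2 cells held 98.3% and 60.8% of their Lyz2 UMIs. Tspan10, a tetraspanin, had 0 UMIs in the cells with a receptor and 52 and 40 UMIs in the cells without, all in 2 cells of each replicate, which makes it at least 330-fold and 135-fold lower against a floor of 3 UMIs per replicate. Cd63, a tetraspanin of lysosomes, stood at 10.3 and 13.4 CPM against 239 and 568 CPM (-5.14, SE 0.44, adjusted p = 0.0120), and Tspan7 at 2.67 and 0.896 CPM against 94.3 and 159 CPM (-5.88, SE 0.49, adjusted p = 0.0120).

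Macrophages with 5 or more Cx3cr1 UMIs numbered 5 and 6, and 3 and 0 of them held a receptor UMI. The receptor-negative ones among them held 25119 to 28526 UMIs in replicate 1 and 14810 to 30373 in replicate 2. The median of all 24 and 12 receptor-negative cells was 8345 and 15865 UMIs, against 19849 and 18399.5 in the cells with a receptor. Of the 137 and 55 macrophages with at least 20000 UMIs, 4 and 4 lacked both receptors, and 2 and 4 of these were the Cx3cr1-rich cells. Markers of the class remained detectable without a receptor, with Spic, a transcription factor of red pulp macrophages, at 1548 and 745 CPM against 2003 and 2057 CPM, and Slc40a1, the iron exporter ferroportin, at 5852 and 2307 CPM against 6702 and 5618 CPM. None of the 44 list genes tested passed, 9 had an unadjusted p under 0.05, and DESeq2 called 3. With the sample as a block 6 passed, and without a filter on low counts 8.

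Whether the receptors marked the Siglec1+ macrophages was compared next. Siglec1 encodes CD169, the sialoadhesin of marginal zone metallophilic macrophages (MMMs), and 112 and 56 macrophages held a UMI of it against 181 and 74 without. Fpr1 stood at 276 and 274 CPM with Siglec1 and 282 and 230 CPM without, a log2 fold change of 0.08 (SE 0.13, 95% interval -0.19 to 0.36, adjusted p = 0.999). Fpr2 stood at 82.9 and 106 CPM with Siglec1 and 88.7 and 139 CPM without, a log2 fold change of -0.27 (SE 0.21, interval -0.74 to 0.20, adjusted p = 0.999). No difference in either receptor was thus detected, within fold bounds of 0.875 to 1.28 for Fpr1 and 0.601 to 1.15 for Fpr2. These bounds hold for groups by a Siglec1 UMI only. Siglec1 was low, at 42.6 and 34.5 CPM in macrophages with a receptor UMI, so cells without its UMI may still carry the transcript. The share of cells with Fpr1 was 92.0% and 89.3% against 82.9% and 79.7%, while median depth was 20859 and 19019 against 17903 and 17986.5 UMIs. Of the 9528 genes tested 0 were higher (0%) and 2 lower (0.021%), with 346 at an unadjusted p under 0.05, and DESeq2 called 0 higher and 1 lower. None of the 47 list genes tested passed by edgeR or DESeq2, and 4 had an unadjusted p under 0.05 in edgeR. With the sample as a block 2 passed, Ptafr as lower (adjusted p = 0.0289) and Ptgs2 as higher (adjusted p = 0.00565), named after their calls were seen, and without a filter on low counts 3.

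The cells just outside the macrophage gate carried the receptors too. Among cells of no gate, 16 and 11 held UMIs of at least 6 of the 9 macrophage markers, and Fpr1 stood at 163 and 170 CPM and Fpr2 at 138 and 116 CPM in them. The gate thus left out some cells with macrophage RNA. The other cells of no gate, 597 and 585, held little, with Fpr1 at 1.54 and 0 CPM, Fpr2 at 4.96 and 6.64 CPM and Anxa1 at 40.0 and 31.3 CPM. Doubling every gate threshold left a mean of 272 CPM Fpr1 and 109 CPM Fpr2 in macrophages.

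Anxa1 was low in macrophages and highest in cDC1s, the cross-presenting dendritic cells, with 76.7 CPM in replicate 1 (72.1 to 81.6, from 1018 UMIs) and 78.1 CPM in replicate 2 (73.1 to 83.3, from 923 UMIs), a mean of 77.4 ± 0.992 (SD, n = 2). A UMI was present in 57.3% and 60.9% of cDC1s, and in 22.9% and 24.2% after thinning. The cDC1s carried 57.7% and 54.8% of all Anxa1 UMIs. The richest cDC1 held 44 UMIs in replicate 1 and 14 in replicate 2. In replicate 1, 3 cDC1s with at least 4 of the 8 neutrophil markers held 50 Anxa1 UMIs, and 1 such cell in replicate 2 held 4. Without these cells the mean was 75.6 CPM.

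NK cells came next, with 55.7 CPM (34.5 to 85.1, from 21 UMIs) and 64.5 CPM (38.8 to 101, from 19 UMIs). Their intervals overlapped those of cDC1s and also those of CLEC10A+ cDC2s, so the place of NK cells between these classes was not resolved at this depth. CLEC10A+ cDC2s had 45.6 CPM (40.1 to 51.6) and 43.6 CPM (37.8 to 50.0), and a UMI in 29.3% and 27.5% of cells. DCIR2+ cDC2s had 29.9 CPM (26.0 to 34.1) and 28.2 CPM (24.1 to 32.7), and a UMI in 25.5% and 22.4%. The intervals of the 2 cDC2 classes did not overlap in either replicate, and thinning gave 14.6% and 13.5% against 10.3% and 9.27%.

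The remaining classes were lower or too thin to order. T cells had 6.44 and 26.9 CPM, pDCs 0 and 14.4 CPM and B cells 4.71 and 11.8 CPM. Mature DCs had 5.68 and 19.0 CPM, and 1 cell held 30 of the 38 UMIs of replicate 2. Without the cells that met more than 1 gate, the mature DC values were 5.30 and 1.42 CPM and those of macrophages 1.01 and 1.82 CPM. Macrophages had 0.904 and 3.26 CPM, with a UMI in 1.71% and 3.85% of cells. These values are below the B cell level in both replicates although macrophages were the deeper class. In replicate 1 that order was not resolved, since B cells held only 3 Anxa1 UMIs there and macrophages 5. Across classes, then, the receptor-rich macrophages were at the low end of Anxa1 RNA, and their order with mature DCs depended on cells in more than 1 gate.

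Within cDC1s the Anxa1 level was split by 2 genes that the rule had not used. Ccr2, the receptor for the monocyte chemoattractant CCL2, was detected in 149 and 141 cDC1s, and Anxa1 stood at 143 and 128 CPM in these against 59.2 and 62.3 CPM in the 535 and 429 without it. The groups did not overlap, in a comparison in which 5.51% of all genes tested were called higher. The log2 fold change was 1.04 (SE 0.10, interval 0.82 to 1.26, adjusted p = 0.000341), a 2.06-fold difference. An Anxa1 UMI was present in 73.2% and 81.6% of cDC1s with Ccr2 and 52.9% and 54.1% of those without, although the cells with Ccr2 were the shallower ones, with medians of 18358 and 19514 UMIs against 20055 and 21363.

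The difference was smaller in deep cells, with a log2 fold change of 0.76 (adjusted p = 0.00569) in cDC1s at or above the median depth of their sample. Leaving out the cells with neutrophil markers gave 0.96 (adjusted p = 0.000252), and leaving out cells with 2 or more UMIs of the proliferation genes Mki67 and Top2a gave 1.08 (adjusted p = 0.000966). Cycling cDC1s by this count had 102 and 78.0 CPM Anxa1 against 67.4 and 78.2 CPM in the rest, which did not hold over both replicates. The 8 neutrophil markers summed to 538 CPM in the Ccr2+ cDC1s of replicate 1 and 17.2 CPM in those of replicate 2, against 8.68 and 9.93 CPM in the others. The 8 monocyte markers, of which Plac8 gave most, summed to 910 and 859 CPM with Ccr2 and 749 and 703 CPM without, and the 8 cDC1 markers to 5956 and 6236 CPM with Ccr2 and 6958 and 7087 CPM without. The part of these differences in the Anxa1 result was not tested beyond the leave-outs given. Fpr2 was too sparse in cDC1s to place, with 7 and 5 UMIs in 3 and 1 cells with Ccr2 against 2 and 5 UMIs in 2 and 2 cells without (log2 fold change 2.38, SE 0.78, adjusted p = 0.0856, and 0.0238 with the sample as a block).

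The Ccr2 comparison was a broad one. Of 11202 genes tested, 617 were higher (5.51%) and 663 lower (5.92%) with Ccr2, and 1022 and 1174 with the sample as a block. Of the 42 list genes tested, 6 were higher and 4 lower, and 15 had an unadjusted p under 0.05. Anxa2, the annexin that pairs with S100A10, rose with Anxa1, at 167 and 169 CPM against 32.2 and 38.6 CPM (log2 fold change 2.13, SE 0.11, adjusted p = 2.63e-05). S100a10 rose as well, at 30.9 and 30.9 CPM against 2.96 and 4.68 CPM (2.91, SE 0.25, adjusted p = 0.000233), as did S100a6 (1.19, SE 0.18). Of the oxidase genes, Cybb, the catalytic subunit, stood at 102 and 53.3 CPM against 15.7 and 21.9 CPM (1.93, SE 0.28), and Fkbp5, a glucocorticoid target, passed in the same direction. Lower with Ccr2 were S100a11, the partner of annexin A1, at 819 and 797 against 965 and 937 CPM (-0.35, SE 0.06), Ptafr, the platelet-activating factor receptor (-1.24, SE 0.16), Zfp36 (-0.42, SE 0.10) and Hpgds. The median log2 fold change was -0.07 over the 7 annexins tested and 1.15 over the 4 S100 genes, and -0.00 over all genes.

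Cd207 encodes Langerin. In Langerin+ cDC1s, 116 and 113 cells with a Cd207 UMI, Anxa1 was lower in both replicates but missed the threshold in the fit without a sample block. Anxa1 stood at 58.1 and 52.1 CPM in these against 80.9 and 85.5 CPM in the 568 and 457 cDC1s without Cd207. The groups did not overlap, in a comparison in which 0.434% of all genes tested were called lower. The log2 fold change was -0.50 (SE 0.11, interval -0.76 to -0.25), and the adjusted p was 0.0899, which missed the threshold of 0.05. With the sample as a block it was 0.00213. Without cells with neutrophil markers the log2 fold change was -0.48 (edgeR adjusted p = 0.129). An Anxa1 UMI was present in 56.9% and 54.0% of the Langerin+ cDC1s and in 57.4% and 62.6% of the others. The Langerin+ cDC1s were deeper, with medians of 22445 and 23444 UMIs against 19023.5 and 20248, and among cells at or above the median depth the log2 fold change was -0.40 (adjusted p = 0.407). Of 11054 genes tested, 46 were higher (0.416%) and 48 lower, and 392 and 265 with the block. Of the 42 list genes tested, 3 passed, all lower. They were Ccr2, at no more than 14.2 CPM in either replicate against 86.0 and 104 CPM (-2.71, SE 0.17, adjusted p = 0.000535), Cybb and S100a4, so the Cd207 and Ccr2 comparisons divided the same cDC1s along related lines and are not independent of each other.

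**Figure D3:**
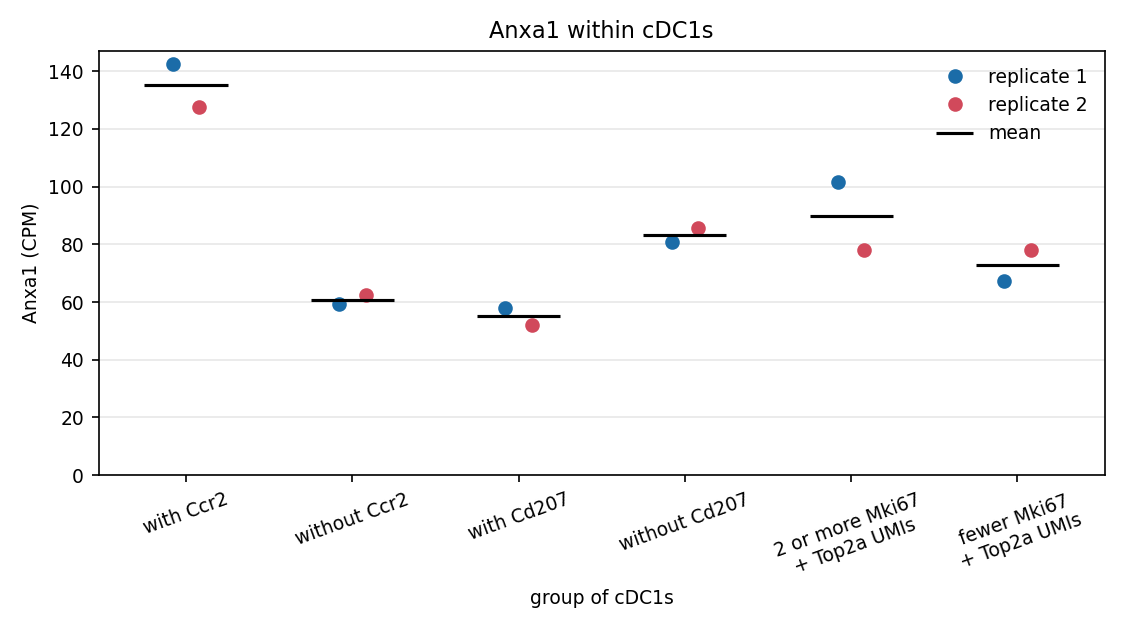
Anxa1 in CPM (vertical axis, from 0) in 6 groups of cDC1s, with 1 point per replicate and a line for the mean of both. The Ccr2+ cDC1s sit at 143 and 128 CPM, above every other group, and the Langerin+ cDC1s at 58.1 and 52.1 CPM, close to the cDC1s without Ccr2 (59.2 and 62.3 CPM).

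The genes whose pattern over the 9 classes was most like that of each member were found among 6020 genes, by the smaller of the 2 Pearson correlations, 1 per replicate, of log2(CPM + 10). For Fpr1 these were Slc16a9, Adrb1, Slco2b1, Slc7a2 and Vstm4, with correlations from 0.997 to 1.00, each highest in macrophages. For Fpr2 they were Fcna, Dmpk, Slc45a3, Slc7a2 and Lilra5, from 0.992 to 0.995, also highest in macrophages. Fpr1 and Fpr2 correlated with each other at 0.991 and 0.995. For Anxa1 the nearest were Taf10 at 0.918, Atp5e at 0.854, Cd9 at 0.835, Arpc1b at 0.827 and Ndufa6 at 0.818. Anxa1 correlated with Fpr1 at -0.387 and -0.614. The points are 9 classes that share a library, and the macrophage class alone sets the pattern of both receptors.

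The lists of related genes below were chosen with results of these data known, and the classes were gated on UMIs of the same cells, although no gate gene is in a list. Macrophages were first compared with the mean log level of the 8 other classes. Of 11917 genes tested, 30.1% were higher in macrophages and 21.2% lower by edgeR's quasi-likelihood test, with a median log2 fold change of 0.05, and calls among list genes are to be read against these shares. A gene called against a mean log level can still be lower or higher in single classes of that mean. Of the other FPR ligands, Camp, Saa3 and Ctsg were too low to test, and Hebp1, whose cleaved peptide is a ligand of this receptor family, was higher, at 322 and 311 CPM in macrophages and at most 14.5 CPM in any other class and replicate (log2 fold change 7.14, SE 0.23, adjusted p = 2.95e-15).

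Of the 8 annexins tested besides Anxa1, 5 were higher in macrophages (Anxa3, Anxa4, Anxa5, Anxa7 and Anxa9) and Anxa6 was lower, with a median of 0.86. Of these 5 only Anxa9 was highest in macrophages. Anxa3 and Anxa4 peaked in mature DCs, Anxa5 in pDCs and Anxa7 in cDC1s. All 4 S100 genes, whose proteins bind annexins, were lower (median -3.63). S100a10 stood at 2.17 and 3.26 CPM in macrophages and at least 6.50 CPM elsewhere (-4.25, SE 0.42), and S100a11 at 43.4 and 48.9 CPM and at least 252 CPM elsewhere (-3.74, SE 0.16). S100a6 and S100a4 fell by 3.53 and 3.47 on the log2 scale. Low S100 levels were not limited to macrophages, since S100a10 and S100a4 stood at 2.44% and 3.53% of their highest class in cDC1s, the class with the most Anxa1.

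Of the 16 coupling and oxidase genes, 7 were higher in macrophages (Gnb1, Plcb3, Cybb and Cyba among them) and 5 lower (Pik3cg, Pik3r5, Plcb2, Rac2 and Ncf1), with a median of -0.05. Of the higher genes named, Plcb3 peaked in T cells and Cybb in pDCs. Of 8 other chemoattractant receptors tested, C5ar2, C3ar1 and Cmklr1 were higher and Ccr2 lower (median 1.38). Cmklr1, the chemerin receptor, stood at 82.1 and 75.4 CPM and at most 40.8 CPM elsewhere, in NK cells (6.62, SE 0.38). C5ar1, the receptor for C5a, was too low to test, at 4.88 and 2.04 CPM in macrophages. Of 8 lipid mediator enzymes tested, 4 were higher and 3 lower (median 1.71). Ptgs1, cyclooxygenase 1, stood at 565 and 504 CPM and at most 6.44 CPM elsewhere (9.10, SE 0.16), Hpgds, a prostaglandin D synthase, at 419 and 392 CPM (4.52, SE 0.22), and Pla2g4a, the phospholipase that frees arachidonic acid, at 197 and 146 CPM (3.96, SE 0.15). Alox5ap, Lta4h and Ptgs2 were lower, and Ltc4s higher. Of the glucocorticoid receptor and its targets, 6 of 7 were higher and Per1 lower (median 0.82), but among the higher ones only Nr3c1 and Sgk1 were highest in macrophages.

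The CLEC10A+ cDC2s were compared with the DCIR2+ cDC2s, where 3.73% of the 11917 genes were higher and 1.75% lower and the median was 0.02. Of the 556 and 456 DCIR2+ cDC2s, only 347 and 300 met no other gate. The rest also met the CLEC10A+ gate, which came later in the order, so the 2 classes overlap by their gates. The fitted log2 fold change of Anxa1 in this comparison was 0.70, as a description. Of the 8 other annexins tested, Anxa5 was higher, at 205 and 228 against 164 and 156 CPM (0.51, SE 0.14, adjusted p = 0.0419), Anxa6 was lower, at 332 and 310 against 497 and 518 CPM (-0.58, SE 0.14, adjusted p = 0.0167), and the median was -0.16. None of the 4 S100 genes passed (median 0.19). Chemoattractant receptors had the most calls of any list, with 5 of 8 higher (Ltb4r1, Ptafr, Cmklr1, Ccr1 and Ccr2) and a median of 3.03. Of the receptors tested, only Ptafr and Ccr2 reached 50 CPM in either class, so this median rests mostly on genes with few UMIs. Ltb4r1 stood at 6.96 and 8.76 CPM against 0.829 and 1.17 CPM, and Cmklr1 at 0.549 and 6.41 CPM against 0.138 and 0.333 CPM. Ccr2 stood at 303 and 314 CPM against 19.1 and 10.3 CPM (4.45, SE 0.41, adjusted p = 1.01e-06). Ccr2 and Anxa1 did not go together in every class, as pDCs had 155 and 329 CPM Ccr2 but 0 and 14.4 CPM Anxa1. Ptafr stood at 149 and 166 against 81.1 and 118 CPM (0.73, SE 0.18), and Cybb at 839 and 837 against 452 and 366 CPM (1.11, SE 0.17), the only gene of its list that passed. Alox5, the leukotriene-forming lipoxygenase, was the only lipid enzyme that passed, and no glucocorticoid gene did.

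**Figure D4:**
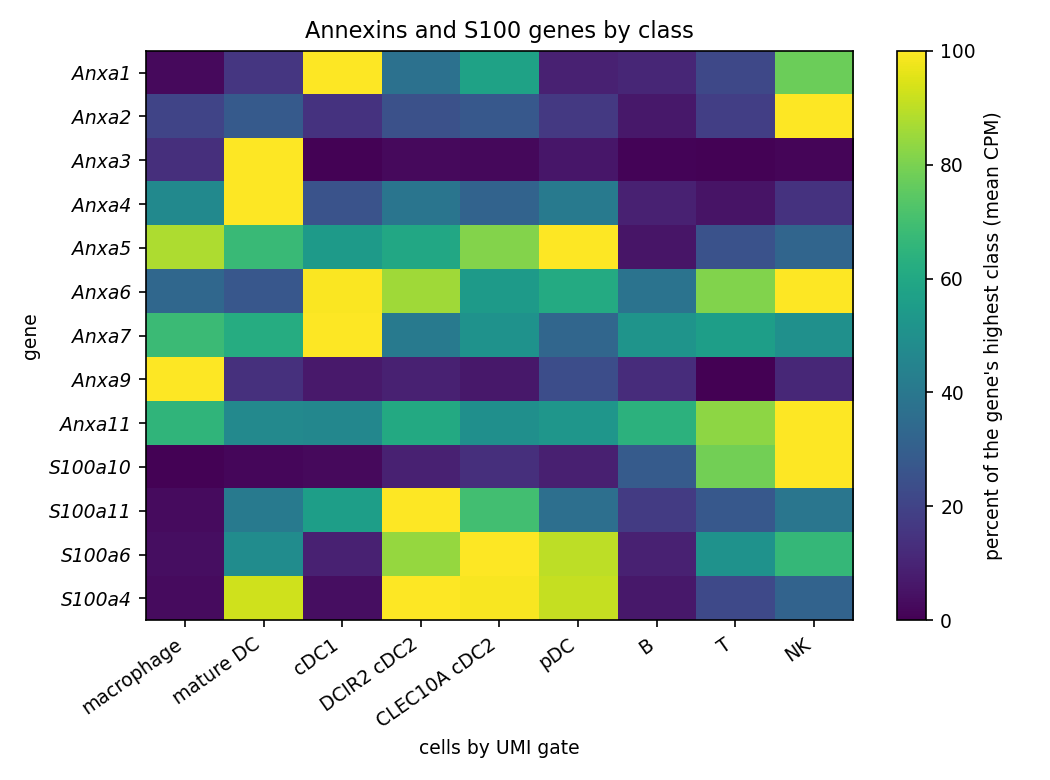
Level of each annexin and S100 gene (rows, those reaching a mean of 10 CPM in a class) in the 9 gated classes (columns), as a percent of the gene's highest class, from the mean CPM of both replicates. Anxa1 peaks in cDC1s and is at 2.69% of that level in macrophages, Anxa3 peaks in mature DCs, and the 4 S100 genes are at or below 3.58% of their peak in macrophages.

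Mature DCs, the CCR7+ cells that migrate to T-cell zones, were compared with the mean log level of cDC1s and both cDC2 classes. There 17.5% of genes were higher and 15.9% lower, with a median of -0.05. Anxa1 stood at 5.68 and 19.0 CPM in mature DCs against 50.7 and 50.0 CPM as the mean of the other DC classes. Anxa3 was higher, at 341 and 407 CPM against 6.16 and 7.58 CPM (5.99, SE 0.20, adjusted p = 2.14e-14), as was Anxa4, at 161 and 152 against 47.1 and 53.5 CPM (1.69, SE 0.14), while Anxa6 was lower, at 165 and 155 against 471 and 473 CPM (-1.48, SE 0.13). The other 5 annexins tested did not pass, and the median was 0.26. S100a10 (-1.79, SE 0.43) and S100a11 passed as lower, although in replicate 1 S100a10 was not below cDC1s (8.83 against 8.82 CPM). S100a4 passed as higher against the mean log level (1.54, SE 0.19), with 475 and 447 CPM in mature DCs and 19.2 and 15.8 CPM in cDC1s, but both cDC2 classes had more, at 486 to 507 CPM. Alox5ap, which serves leukotriene synthesis, was lower, at 141 and 112 against 526 and 568 CPM (-2.08, SE 0.16). Ptgs2, cyclooxygenase 2, passed as higher (1.48, SE 0.30), at 409 and 395 CPM against at most 25.7 CPM in cDC1s, while in replicate 2 both cDC2 classes had more, at 456 and 472 CPM. Of the 16 coupling and oxidase genes 6 were higher and 7 lower (median -0.23), with Ncf1 at 0.77 (SE 0.12), Plcb2 at -2.22 (SE 0.21) and Gng2 at -1.40 (SE 0.18). Ptafr passed as higher and Ccr2 as lower (-1.92, SE 0.45), although in replicate 2 Ptafr was below the CLEC10A+ cDC2s (152 against 166 CPM) and Ccr2 above the DCIR2+ cDC2s (29.5 against 10.3 CPM). Zfp36 passed as higher and Sgk1 as lower, and Hebp1 was higher (1.79, SE 0.43).

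The pDCs, the type I interferon producers, rested on 13 and 19 cells, so low genes could not be placed. Only 4 and 7 of these cells met no other gate, so the class was not cleanly set apart. Against the same 3 DC classes, 4.57% of genes were higher and 6.66% lower, with a median of -0.24. With DESeq2 the median was -0.01, and the split went from 545 higher and 794 lower to 1018 and 540. Higher were Ccr1, at 74.6 and 75.8 against 4.51 and 4.14 CPM (4.77, SE 0.55) and Cybb, at 1087 and 1315 against 442 and 411 CPM (2.18, SE 0.15). Ccr2 (1.56, SE 0.42) and S100a4 (1.22, SE 0.25) passed as higher against the mean log level but not above every class. Ccr2 stood at 155 and 329 CPM in pDCs and at 303 and 314 CPM in CLEC10A+ cDC2s, and S100a4 at 448 and 459 CPM in pDCs and at 486 to 507 CPM in both cDC2 classes. Ncf4, an oxidase subunit, had 0 UMIs in pDCs against 70.3 and 67.5 CPM, at least 4.39-fold and 6.23-fold lower at a floor of 3 UMIs per replicate. S100a11 (-1.28, SE 0.15), Anxa7 (-1.01, SE 0.32), Anxa6, Dusp1 (-0.90, SE 0.22), Cyba (-0.85, SE 0.23), Rac2, Pla2g4a and Sgk1 passed as lower against the mean log level. Not all were below every class, since Rac2 stood at 336 and 293 CPM in pDCs against 232 and 226 CPM in cDC1s. Cyba was above cDC1s in replicate 1 (235 against 181 CPM). In replicate 2 Anxa6 was above CLEC10A+ cDC2s (415 against 310 CPM) and Anxa7 above DCIR2+ cDC2s (54.2 against 48.0 CPM). Of the 8 chemoattractant receptors tested, 5 had no UMI in pDCs of either replicate, and with these at their floor the list's median was 0 rather than the fitted -4.11.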

How the data were processed

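The authors made the deposited UMI counts per gene and cell with the BD Rhapsody WTA Analysis Pipeline 1.12.1 on GRCm38 with GENCODE vM19 per the file headers, counting intronic reads and correcting UMIs. R 4.2.3 and Seurat 4.3.0.1 are named in the submitters' processing notes. Every sample column was used, and 0 value columns were left aside. The members, gates and lists were chosen with earlier results of these data known.

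Cells needed 200 genes and had to lie within 3 median absolute deviations of the mean for genes, UMIs and percent mitochondrial UMIs. The study's methods name the number of mitochondrial genes, which was read here as the mitochondrial percent, and the deviations were scaled by 1.4826, which the methods do not state. Counts were summed per replicate and class, and CPM divides a gene's UMIs by those sums. Intervals are exact (Poisson or Clopper-Pearson) and cover counting error only. Comparisons used edgeR 4.0.16 (R 4.3.3) with TMM, filterByExpr, the quasi-likelihood test and Benjamini-Hochberg adjustment over all genes tested, at 0.05. The 9 classes were fitted together without a sample term. DESeq2 1.42.0 was an alternative, and levels and intervals were computed with scipy 1.17.1 and pandas 2.3.3. The steps were tested on simulated counts. Same-numbered sums come from 1 sample and are paired by origin, and their deviations correlated at 0.146 and 0.154 in the Cd207 and Ccr2 comparisons.

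Named beside the members were, per comparison, up to 5 list genes in each direction past the threshold, with 50 CPM or more in the higher group and the same direction in both replicates, and the 5 genes most like each member. In the receptor comparison the 5 came from all genes. Further list genes were named after their calls were seen. Gene positions came from GENCODE M21 on the same build, and promoter sequences from RefSeq. Some genes that passed a test are not reported here.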

Additional observations from a re-analysis of the deposited data

Results flagged for a closer look

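Cells that met no gate lie outside the comparisons above, and some of them held neutrophil RNA together with all 3 genes. Among all deposited cells of no gate, 11 in replicate 1 and 28 in replicate 2 held UMIs of at least 4 of the 8 neutrophil markers, and the filter on cells kept 3 and 6 of them. Their median depths were 3225 and 3782 UMIs. S100a8, which encodes a calprotectin subunit of neutrophils, stood at 11356 and 28332 CPM in them.

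Fpr1 stood at 176 CPM in replicate 1 (8 UMIs, in 45.5% of cells) and 323 CPM in replicate 2 (41 UMIs, 67.9%), above what a count of 3 would give, 65.9 and 23.7 CPM. Fpr2 stood at 308 CPM (14 UMIs, 54.5%) and 836 CPM (106 UMIs, 71.4%), and Anxa1 at 395 CPM (18 UMIs, 72.7%) and 1838 CPM (233 UMIs, 75.0%). In both replicates the levels of Fpr2 and Anxa1 in these cells were above those of every gated class. The groups are small, most of their cells fell outside the filter, and no test was made. The gated classes hold kept cells only. In replicate 1 the 3 kept cells held 0 UMIs of Fpr1, 0 of Fpr2 and 3 of Anxa1. The 6 kept cells of replicate 2 held 12, 36 and 85.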

How the results depend on the processing

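Calls were recomputed with DESeq2, without a filter on low counts, with the sample as a replicate block, on all deposited cells, without cells in 2 or more gates and in each replicate alone. Of 144 alternative values, 123 were counted as unchanged. Fold changes and levels counted so if they kept their direction and side of the threshold or moved by less than the replicate spread. Counts of list genes called counted so if they stayed within the fold limit given below. For levels and log2 fold changes, the value of a single replicate lies within that spread by arithmetic. Those values are among the 123 but could not have changed, so they are no check. Alternatives on deep cells in the Cd207, Ccr2 and Siglec1 comparisons, on cycling cells and on cells with neutrophil markers were added after seeing the data. The cause was not tested for any change below.

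The count of list genes called moved by over 1.5 times in these cases. With the block it went from 3 to 11 in the Cd207 comparison, from 10 to 16 in the Ccr2 comparison, from 0 to 2 in the Siglec1 comparison and from 0 to 6 in the receptor comparison, and the block moved no other list count by that much. Without a filter on low counts it was 21 instead of 13 for pDCs, 10 for Cd207, 17 for Ccr2, 3 for Siglec1 and 8 for the receptor comparison. The receptor comparison gave 3 with DESeq2, 14 on all deposited cells and 1 on deep cells, and the Cd207 comparison 5 without cells with neutrophil markers. Over all genes, the receptor comparison called 11 as reported and 664 on all deposited cells, the Cd207 comparison 94 and 29 to 657, the Ccr2 comparison 1280 and 523 to 2196, and the Siglec1 comparison 2 and 0 to 74. For pDCs the count was 1339, and 733 without cells in 2 or more gates. For the cDC2 classes it was 652, and 990 without such cells.

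Anxa1 in the Cd207 comparison passed with the replicate block (log2 fold change -0.50, adjusted p = 0.00213) and without the low-count filter (-0.54, adjusted p = 0.00206), and not otherwise (DESeq2 adjusted p = 0.318). Anxa1 passed in the Ccr2 comparison under every alternative run. Fpr2 in the Siglec1 comparison turned to 0.016 (adjusted p = 1.00) without cells in 2 or more gates. On all deposited cells the macrophage mean of Fpr1 was 241 CPM instead of 264. The cDC1 mean of Anxa1, 77.4 CPM with an SD of 0.992, was 75.8 on all deposited cells, 78.7 with doubled thresholds, 75.6 without cells with neutrophil markers and 79.1 as a mean over cells.

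Each replicate alone leaves no residual degrees of freedom, so these are values with no test. All called list genes kept their direction in each replicate. The log2 fold change of Anxa1 ranged from -0.63 to -0.38 for Cd207 and 0.91 to 1.17 for Ccr2, and in the Siglec1 comparison Fpr1 ranged from -0.03 to 0.23 and Fpr2 from -0.42 to -0.09. With 13 to 19 pDCs and 36 to 38 NK cells, levels under about 3 UMIs cannot be placed.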
